A study of Mus musculus with 19 samples.

Results

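Cystic embryoid bodies (EBs) of the mouse embryonic stem (ES) cell clone JN were compared with the endoderm layer of the visceral yolk sac (ysE) at E9.25. The comparison asks which functions of ysE were missing from EBs, and which other lineages the EBs held, over autosomal genes. It rests on 4 of the 19 samples of the series, namely JN EBs differentiated for 10 and for 15 days (d10 and d15) and ysE samples A and B. They were chosen by clone and stage, because all 4 libraries were made with the same dUTP protocol that keeps strand information. Of 22200 autosomal gene symbols in the count table, 16226 had enough counts to be tested. JN is 1 clone with an XX karyotype from C57BL/6 and 129 mice, and each day is 1 library, so that the spread between EB libraries holds the difference between days. Its ES cells had been grown with LIF on irradiated fibroblast feeders, and the number of feeder cells carried into EBs was not measured. The ysE came from FVB/N embryos, with all embryos of a litter pooled for each sample and the mesoderm peeled off after DispaseII. The labels name no transgene or treatment in either group. Strain, sex makeup, culture and stage all go with the group and cannot be told apart from tissue. The p-values measure the spread between these 4 libraries only.

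The visceral yolk sac nourishes the rodent embryo before the placenta is complete. Its endoderm is a polarised epithelium whose brush border faces the maternal side. It takes up maternal protein through large endocytic receptors, digests it in lysosomes, and passes amino acids, vitamins, iron and fat to the embryo. It also makes the plasma proteins and apolipoproteins that the liver makes later, under nuclear factors such as HNF4A and the FOXA family. Cystic EBs are fluid-filled aggregates that form when ES cells differentiate in suspension, and endoderm-like cells line their surface. The study made them as a possible model of ysE for imprinted expression.

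Counts summed over all transcripts were 96882725 and 110465060 in EBs (d10, d15) and 108710581 and 169981821 in ysE (A, B). Between the days of EBs, 11.8% of 15980 genes differed by at least 2-fold in CPM (counts scaled to library size), against 4.35% of 14995 genes between the ysE samples. Below, levels are RPKM (reads scaled for transcript length and library size) as deposited, always given as d10 and d15 for EBs and as A and B for ysE. Log2 fold changes (EBs over ysE, ± SE) come from edgeR's quasi-likelihood test on counts. The SE was derived as the size of the log2 fold change divided by the square root of the test's F value. The words "higher" and "lower" are used of genes with a Benjamini-Hochberg adjusted p under 0.05. The test scales libraries by TMM factors, whose ratio of 1.44 between groups (0.52 on the log2 scale) makes a fitted change lower than the ratio of RPKM. These are bulk samples, in which fewer cells of a type cannot be told apart from less RNA per cell.

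The markers followed the labels. Hnf4a, a nuclear receptor that marks visceral endoderm and liver, was at 3.23 and 5.08 RPKM in EBs and 87.1 and 98.4 RPKM in ysE. Its log2 fold change was -4.91 ± 0.26 (adjusted p = 9.63e-06 by edgeR), so that EBs held some Hnf4a RNA and ysE 30.1-fold more. Amn, the anchor of the vitamin B12 and protein receptor cubilin, stood at 5.27 and 12.4 RPKM in EBs and 174 and 249.1 RPKM in ysE (log2 fold change -5.02 ± 0.41, adjusted p = 4.63e-05). Pou5f1, which encodes the pluripotency factor OCT4, was at 76.8 and 39.1 RPKM in EBs and 0.13 and 0.078 RPKM in ysE (log2 fold change 8.76 ± 0.50, adjusted p = 1.21e-05). For each of the 3 genes, both EB libraries lay on the same side of both ysE libraries. Most genes showed this, since of 16226 tested genes EBs lay above both ysE libraries for 6937 and below both for 6427. On GRCm38 (mm10), the build of the files, Hnf4a lies at chr2:163506811-163572907, Amn at chr12:111271096-111276426 and Pou5f1 at chr17:35506032-35510777.

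Over all autosomal genes, 5008 (30.9%) were higher and 4601 (28.4%) were lower in JN cystic EBs, and 6617 were not called. The median log2 fold change of all tested genes was 0.08. Changes of at least 8-fold numbered 2003 higher and 740 lower genes, and changes of at least 32-fold 752 and 281. With upper quartile scaling, the median moved from 0.10 to 0.45 over all transcripts tested, and the calls became 6419 higher and 3227 lower. With limma on log2(RPKM + 1), which changes test, unit and scaling together, they were 5829 and 2840. The split between directions thus depends on the processing. Lists of genes for 13 functions of ysE and for 19 other cell types or functions are described against these shares.

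**Figure D1:**
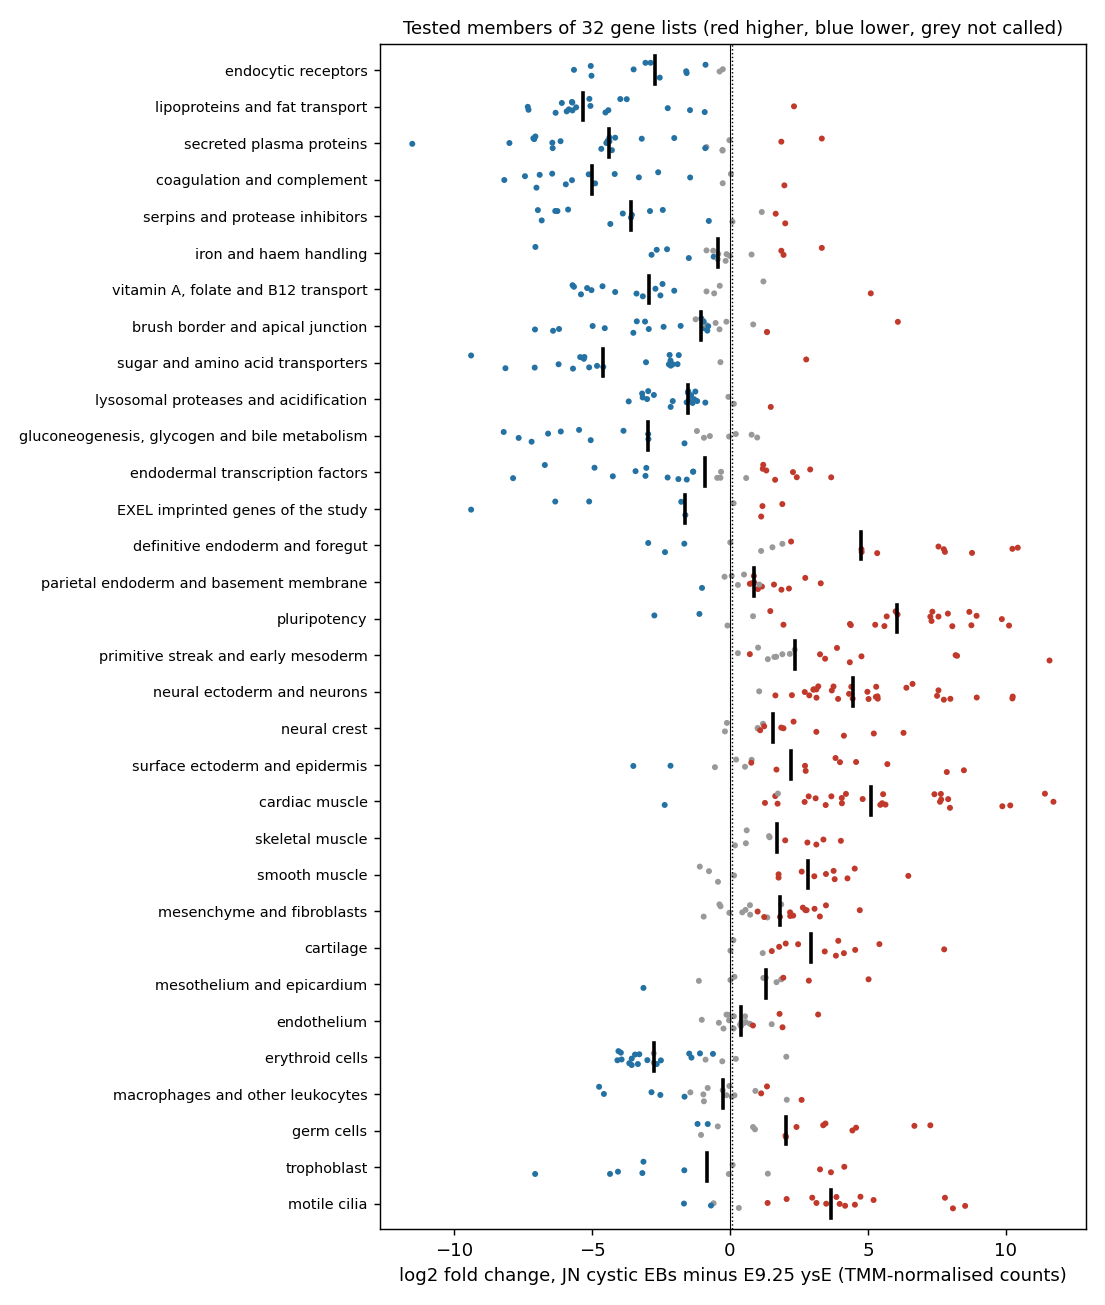
Log2 fold change (EBs over ysE, x axis, edgeR) of every tested gene of the 32 lists, 1 row a list, with higher genes in red, lower genes in blue and uncalled genes in grey. The black bar is the median of a list and the dotted line the median of all tested genes (0.08). The lists of ysE functions sit mostly to the left, with the lipoprotein list at -5.34, and the pluripotency, cardiac and neural lists sit to the right, at 6.04, 5.13 and 4.45.

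The endocytic receptors of ysE were low in EBs. Of 12 tested genes of uptake, 10 were lower and 2 were not called (median log2 fold change -2.71). Cubn, which encodes cubilin, the receptor for the B12 carrier and many other proteins, was at 9.64 and 10.6 RPKM in EBs and 336 and 429 RPKM in ysE, or 10.1 ± 0.713 against 382 ± 65.6 (mean ± SD, n = 2 each). Its log2 fold change of -5.66 ± 0.27 was far beyond the spread in either group (adjusted p = 6.63e-06). Fcgrt, the neonatal Fc receptor that carries maternal IgG, was at 1.55 and 4.59 RPKM in EBs and 64.7 and 84.7 RPKM in ysE, 33.1-fold lower in EBs. The partner of cubilin, megalin (Lrp2), was lower by a smaller factor, with 20.7 and 12.1 RPKM in EBs and 85.9 and 96.1 RPKM in ysE (log2 fold change -2.88 ± 0.32). Lrp2 and Ap2a1 are described beside Cubn after their values were seen. Ap2a1, a subunit of the general endocytic adaptor, was among the genes not called, at a log2 fold change of -0.38. The clearance receptor Stab2 was 11.3-fold lower in EBs, from 2.49 and 3.99 RPKM in ysE. It was at 65.6 and 61.7 RPKM in the mesoderm layer of the same visceral yolk sacs (VYS mesoderm, 2 libraries), so the ysE level was 5.09% of that layer's.

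Apolipoprotein and fat transport genes were nearly all lower. Of 20 tested genes, 19 were lower and 1 was higher, with a median log2 fold change of -5.34 (-5.08 with Apoh, absent from EB counts, set to its bound). This was the lowest median of the lists, but not under every setting. Without d10 (-4.77) the medians of coagulation and complement (-5.11) and of the transporters (-4.81) were lower, without ysE B (-5.29) that of coagulation and complement (-5.38), and with clone A9 in place of JN (-3.89) that of serpins (-3.90). Apoa4, a component of lipid-rich particles, was at 4.56 and 7.86 RPKM in EBs and 710.4 and 745 RPKM in ysE (log2 fold change -7.31 ± 0.33, adjusted p = 5.71e-06). Apoa1, the main protein of high-density lipoprotein, was at 28.2 and 48 RPKM in EBs and 1435 and 1806 RPKM in ysE, and the activator of lipoprotein lipase Apoc2 at 7.27 and 26.2 RPKM and 690.5 and 795 RPKM. In each case the groups were far apart, with d15 above d10. Fabp1, a cytoplasmic fatty acid carrier, fell 68.5-fold and the lipase Lipc 80.2-fold. Apoe, which many cell types make, was the most abundant member in EBs and had the smallest change of these, with 315 and 464 RPKM in EBs and 696 and 885 RPKM in ysE (log2 fold change -1.45 ± 0.24). Pltp, a phospholipid transfer protein found in many tissues, was the 1 higher gene, at 15.5 and 19.9 RPKM in EBs and 2.66 and 2.59 RPKM in ysE (5-fold).

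The secreted plasma proteins, clotting factors and protease inhibitors were low as well. Of 24 tested plasma protein genes, 18 were lower, 2 were higher and 4 were not called (median log2 fold change -4.37), and 2 more had too few counts. Afp, the albumin of the fetus and the most abundant transcript of these lists, was at 35.1 and 212 RPKM in EBs and 6071 and 6628 RPKM in ysE. Its CPM was 5.59-fold higher at d15 than at d10, and over both days Afp was 70.8-fold lower than in ysE (log2 fold change -6.15 ± 0.79, adjusted p = 0.000368). Fga, the alpha chain of fibrinogen, was at 0.491 and 1.79 RPKM in EBs and 204 and 224 RPKM in ysE (log2 fold change -8.00 ± 0.61). Gc, the vitamin D carrier, had a log2 fold change of -4.67 ± 0.43.

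Other plasma proteins followed the same order. Kng1, the kininogen precursor, was 140-fold and Fgg, the gamma chain of fibrinogen, 137-fold lower in EBs. Ttr, the thyroid hormone and retinol carrier, was at 42.8 and 159.7 RPKM in EBs and 1412 and 1652 RPKM in ysE, so d15 EBs held about as much Ttr as the VYS mesoderm samples (113 and 188 RPKM). Itih1, a hyaluronan-binding plasma protein, had 1 count in both EB libraries together and 3536 counts in ysE. Cp, the copper oxidase ceruloplasmin, went the other way at low levels, with 0.329 and 1.13 RPKM in EBs and 0.066 and 0.04 RPKM in ysE (log2 fold change 3.33 ± 0.64).

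Of 16 tested genes of coagulation and complement, 13 were lower, 1 was higher and 2 were not called, with a median log2 fold change of -5.01, and 3 more had too few counts. Mbl2, a lectin that starts complement activation, was at 0.033 and 0.204 RPKM in EBs and 27.3 and 24.6 RPKM in ysE (log2 fold change -8.19 ± 0.56). Plg, which encodes plasminogen, fell 130-fold, and the clotting cofactor Proz 173-fold. The complement genes Cfb and Cfi were at 53.5 and 59.95 RPKM and 23.9 and 25.1 RPKM in ysE, and at 0.712 and 1.77 RPKM and 0.105 and 0.447 RPKM in EBs. Masp1, a protease of the lectin pathway, was higher in EBs (2.44 and 3.35 RPKM against 0.484 and 0.612 RPKM), and the VYS mesoderm held more of it than either (7.78 and 8.21 RPKM).

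Of 16 tested protease inhibitors, 12 were lower, 2 were higher and 2 were not called (median log2 fold change -3.57). Serpinf2, the inhibitor of plasmin, was at 0.733 and 2 RPKM in EBs and 105 and 125 RPKM in ysE (log2 fold change -6.83 ± 0.47). Serpind1 and Serpinc1, both inhibitors of thrombin, fell 125-fold and 76.6-fold. Spink3, a trypsin inhibitor of endoderm, was by contrast abundant in both groups, with 454 and 577 RPKM in EBs and 699 and 604 RPKM in ysE. Its log2 fold change of -0.77 ± 0.20 was called lower (adjusted p = 0.0108), was not called when ysE sample A was left out, and the RPKM of the groups nearly met. Pzp, a broad protease inhibitor, was higher in EBs at 0.254 and 0.133 RPKM against 0.039 and 0.033 RPKM, a call that was lost without d10 or either ysE sample. The 5 Serpina1 genes tested were all lower, but they are near-identical copies between which reads may have been split.

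**Figure D2:**
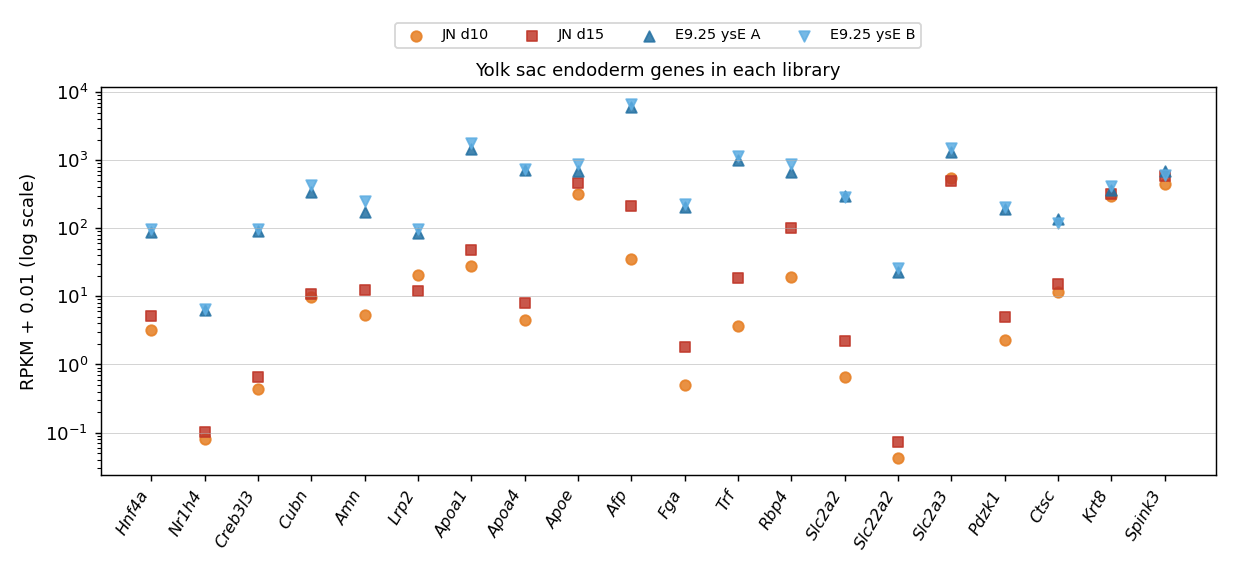
RPKM + 0.01 (log axis) of 20 genes of ysE function in the 4 libraries, with JN d10 and d15 EBs and ysE A and B as separate points. For Cubn, EBs sit at 9.64 and 10.6 RPKM and ysE at 336 and 429 RPKM. The gap is wide for most genes shown and small for Slc2a3, Apoe, Krt8 and Spink3.

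Uptake of vitamins and iron differed between genes. Of 18 tested genes of vitamin A, folate and B12 transport, 13 were lower, 1 was higher and 4 were not called (median log2 fold change -2.93). Rbp4, the retinol carrier of plasma, was at 19.1 and 100.2 RPKM in EBs and 669 and 891 RPKM in ysE (log2 fold change -4.17 ± 0.66). Bcmo1, which cleaves carotene to retinal, was 52.3-fold lower, the cellular retinol carrier Rbp2 42.4-fold and the vitamin C transporter Slc23a1 36.3-fold. Cyp26a1, which degrades retinoic acid, was the 1 higher gene, with 21.8 and 12.2 RPKM in EBs and 0.404 and 0.341 RPKM in ysE (log2 fold change 5.11 ± 0.39).

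Iron and haem genes were not called more often than all genes. Of 17 tested, 6 were lower, 3 were higher and 8 were not called, with a median log2 fold change of -0.44, where 28.4% of all genes were lower and 30.9% higher. Without d10, 10 of 18 were lower. Trf, which encodes the iron carrier transferrin, was at 3.62 and 18.3 RPKM in EBs and 993 and 1138 RPKM in ysE, 133-fold lower. The iron exporter Slc40a1 was 6.31-fold lower, the zinc and iron importer Slc39a8 7.19-fold and the metalloreductase Steap2 4.87-fold. The ferritin light chain Ftl1 was abundant in both groups (451 and 467 RPKM in EBs, 478 and 554 RPKM in ysE), and its call as lower (log2 fold change -0.59 ± 0.19) was lost without either ysE sample. The transferrin receptor Tfrc, singled out after its values were seen, was higher, at 104 and 93.2 RPKM in EBs and 21.1 and 17.1 RPKM in ysE.

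Brush border genes differed by very unequal factors. Of 25 tested genes of the brush border and apical junction, 16 were lower, 2 were higher and 7 were not called (median log2 fold change -1.04). Without d15 the median was -1.70, and with limma on log2(RPKM + 1), 9 were lower. The protocadherins that link microvilli, Cdhr2 and Cdhr5, fell 85.4-fold and 135-fold. The brush border scaffold Pdzk1 was at 2.31 and 4.98 RPKM in EBs and 192 and 203 RPKM in ysE (log2 fold change -6.20 ± 0.38), and the sodium-proton exchanger Slc9a3 was 31.6-fold lower. The epithelial keratins Krt8 and Krt18, by contrast, differed little. Krt18 was at 367 and 428 RPKM in EBs and 499 and 547 RPKM in ysE (log2 fold change -0.82 ± 0.19), and Krt8 at 296 and 313 RPKM and 369 and 417 RPKM (log2 fold change -0.79 ± 0.19). Both were called lower, and both calls were lost without ysE B, that of Krt8 also without ysE A. Mep1b, a membrane metalloprotease, was 68.1-fold higher in EBs at a low level (1.1 and 0.67 RPKM against 0.022 and 0 RPKM).

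The promoters of Pdzk1 and of Muc13, a membrane mucin of epithelia, are shown because each holds the letters CAAAGTCCA of an HNF4 site, given in capitals. A peak of the promoter mark H3K4me3 in whole VYS at E12.5 overlapped each promoter window. Muc13, described for these letters, was at 1.35 and 2.62 RPKM in EBs and 16.1 and 17.2 RPKM in ysE (log2 fold change -3.51 ± 0.30). The windows run from 250 bases before to 50 bases after the RefSeq start on GRCm38.p6, at chr3:96829815-96830114 and chr16:33794239-33794538 (both plus strand), and both strands were searched.
Pdzk1: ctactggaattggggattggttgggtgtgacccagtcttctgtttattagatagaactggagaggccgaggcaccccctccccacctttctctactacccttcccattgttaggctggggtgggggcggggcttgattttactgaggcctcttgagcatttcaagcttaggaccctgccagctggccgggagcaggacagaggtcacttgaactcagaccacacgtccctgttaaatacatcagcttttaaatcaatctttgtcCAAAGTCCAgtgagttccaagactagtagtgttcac
Muc13: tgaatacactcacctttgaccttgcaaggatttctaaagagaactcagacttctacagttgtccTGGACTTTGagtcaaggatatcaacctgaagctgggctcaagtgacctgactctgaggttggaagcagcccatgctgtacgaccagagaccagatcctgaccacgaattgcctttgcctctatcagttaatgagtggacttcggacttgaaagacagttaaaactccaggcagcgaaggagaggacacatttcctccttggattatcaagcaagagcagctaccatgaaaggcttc
The match lay at bases 15 to 23 in Pdzk1, and at bases -186 to -178 in Muc13, where it was on the minus strand and its reverse complement is printed. Bases are counted from the start. Of the 164 lower genes on the ysE lists, 126 had a promoter in RefSeq's table, and these 2 held the letters. Of 31396 autosomal promoter windows in the table, 0.487% held them. A match is only a description of the sequence.

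The solute carriers on the apical and basal membranes were nearly all lower. Of 21 tested transporters, 19 were lower, 1 was higher and 1 was not called, with a median log2 fold change of -4.60. The glucose transporter of liver and gut, Slc2a2, was at 0.639 and 2.17 RPKM in EBs and 294 and 288 RPKM in ysE (log2 fold change -8.14 ± 0.59). Slc22a2, a cation transporter, had the largest fall on this list, from 23.2 and 25.9 RPKM in ysE to 0.033 and 0.064 RPKM in EBs (log2 fold change -9.39 ± 0.32). The neutral amino acid carrier Slc6a19 and the dicarboxylate carrier Slc13a3 fell 136-fold and 74.4-fold. The sugar carrier Slc2a3 was at 549 and 494 RPKM in EBs and 1328 and 1504 RPKM in ysE (3.63-fold lower). The lactate carrier Slc16a1 was 4.56-fold lower. Slc2a1, the glucose transporter of most cells, was the uncalled member, with 299 and 236 RPKM in EBs and 243 and 267 RPKM in ysE. The glutamine carrier Slc38a3 was higher at 1.11 and 1.01 RPKM against 0.093 and 0.139 RPKM.

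Lysosomal genes were lower by smaller factors. Of 21 tested, 18 were lower, 1 was higher and 2 were not called (median log2 fold change -1.52). The proteases Ctsc and Ctsz were 12.8-fold and 8.03-fold lower, and Lgmn 4.44-fold. Tfeb, a regulator of lysosome genes, was at 1.51 and 2.89 RPKM in EBs and 13.2 and 16 RPKM in ysE (log2 fold change -3.17 ± 0.30). The proton pump subunit Atp6v0a4 was 7.81-fold lower. Ctsl, the most abundant cathepsin, was at 306 and 498 RPKM in EBs and 707 and 649.8 RPKM in ysE, a log2 fold change of -1.19 ± 0.25 that was 0.41 with A9 in place of JN. A9 is another ES clone, whose EB libraries were made with the ScriptSeq kit, so that clone and library protocol change together. Scarb2, a lysosomal membrane protein, was the 1 higher gene (39.1 and 41.4 RPKM in EBs, 10.5 and 11.1 RPKM in ysE).

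Most genes of gluconeogenesis, glycogen and bile metabolism tested were lower. Of 18 tested, 11 were lower and 7 were not called (median log2 fold change -2.96), and 6 more had too few counts in these libraries. The median was -1.66 with no filter on low counts and -1.24 with 11 libraries in the fit, with 23 genes tested in each. Without d10, 2 were higher, and without d15, 1 was higher and 14 were lower. Hgd, of tyrosine breakdown, fell 296-fold, Fbp2, of gluconeogenesis, 96.9-fold and the bile salt pump Abcb11 147-fold. Gyg, the primer of glycogen, was not called, with 7.95 and 30.0 RPKM in EBs and 13.1 and 15.2 RPKM in ysE. Its d10 level lay below and its d15 level above both ysE samples.

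The transcription factors of endoderm moved both ways. Of 24 tested, 12 were lower, 8 were higher and 4 were not called (median log2 fold change -0.90). The share of higher genes was near that of all tested genes, of which 30.9% were higher and 28.4% lower. Creb3l3, a membrane-bound factor of liver and gut, was at 0.426 and 0.65 RPKM in EBs and 90.3 and 96.5 RPKM in ysE (log2 fold change -7.87 ± 0.28). The bile acid receptor Nr1h4 was at 0.07 and 0.093 RPKM in EBs and 6.35 and 6.54 RPKM in ysE (log2 fold change -6.72 ± 0.33). Xbp1, a factor of secretory cells, was 4.8-fold lower. Sox17, a factor of early endoderm and of endothelium, was the largest change to the other side, with 5.37 and 5.7 RPKM in EBs and 0.289 and 0.358 RPKM in ysE (log2 fold change 3.67 ± 0.27). Of the other early endoderm factors, described after their values were seen, Gata4 was not called (7.02 and 8.54 RPKM in EBs, 6.68 and 7.82 RPKM in ysE), and Gata6 was higher (5.44 and 8.51 RPKM against 1.84 and 2.31 RPKM). The median of the list was -1.39 without d15, and 0.07 with A9 and its protocol in place of JN.

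Among genes with imprinted expression confined to extra-embryonic tissue, a list that the study itself chose, 5 of 9 tested were lower, 3 were higher and 1 was not called. Being the study's own, this list is not independent evidence of a direction. Its share of higher genes was near the 30.9% of all tested genes, of which 28.4% were lower. Slc22a2, given above, Slc22a3 and Tfpi2 were at the low end, with Slc22a3 at 0.211 and 0.166 RPKM in EBs and 4.74 and 5 RPKM in ysE, and Tfpi2 at 0.115 and 0.139 RPKM and 8.49 and 6.89 RPKM. Cd81, a tetraspanin of most cells, was higher at 93.1 and 137 RPKM in EBs and 35.7 and 39.5 RPKM in ysE (log2 fold change 1.18 ± 0.21). Osbpl5, a lipid transfer protein, was 3.73-fold higher.

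Among the other lineages, EBs expressed genes of undifferentiated cells. Of 24 tested pluripotency genes, 20 were higher, 2 were lower and 2 were not called, with a median log2 fold change of 6.04. Without d10 it was 5.85, beside 5.86 for the cardiac list, and with A9 in place of JN it was 4.17, below the cardiac (5.14) and neural (4.84) lists. Dnmt3l, a cofactor of de novo methylation, was at 30.7 and 12.51 RPKM in EBs and 0.025 and 0.007 RPKM in ysE (log2 fold change 10.12 ± 0.73, adjusted p = 2.72e-05). Tdgf1, a co-receptor of Nodal, was at 58.1 and 35 RPKM in EBs and 0.017 and 0.052 RPKM in ysE (log2 fold change 9.86 ± 0.50). Gdf3, a ligand of the same pathway, had 1704 counts in EBs and 3 in ysE. The groups were well apart for all of these, and d15 was below d10 for each. The 2 lower genes were Tdh, the threonine dehydrogenase of ES cells, and the RNA-binding Lin28a, both of which ysE expressed strongly. Tdh was at 35.6 and 17.5 RPKM in EBs and 120.3 and 149 RPKM in ysE (log2 fold change -2.74 ± 0.36), and Lin28a at 113 and 79.7 RPKM and 152 and 161 RPKM (log2 fold change -1.11 ± 0.24). In ysE, the summed RPKM of the list, 304 and 346, thus came mostly from these genes, against 748 and 489 in EBs.

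Germ cell genes were also mostly higher. Of 15 tested, 9 were higher, 2 were lower and 4 were not called (median log2 fold change 2.03). With A9 in place of JN, 6 were higher and the median was 0.35. Sycp3, of the meiotic chromosome axis, was at 19.1 and 12.6 RPKM in EBs and 0.709 and 0.398 RPKM in ysE (log2 fold change 4.44 ± 0.42). The early germ cell gene Dppa3, also on the pluripotency list, was 154-fold, the transposon defence gene Mael 103-fold and the factor Tfap2c 23.8-fold higher. Tdrd1, of the piRNA pathway, was called lower at 0.21 and 0.148 RPKM against 0.252 and 0.356 RPKM, and the call was lost without either ysE sample.

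Genes of the primitive streak, where mesoderm and endoderm arise in the embryo, were higher or not called. Of 17 tested, 9 were higher and 8 were not called (median log2 fold change 2.35). With upper quartile scaling, 14 were higher. T, the streak factor brachyury, was at 11.2 and 5.41 RPKM in EBs and had 1 count in ysE. Fgf8, a growth factor of the streak, was at 3.25 and 3.63 RPKM in EBs and had 3 counts in ysE. The ligand Wnt3 was at 1.53 and 0.968 RPKM in EBs and 0.016 and 0.05 RPKM in ysE, and the factor Eomes at 1.74 and 0.901 RPKM and 0.081 and 0.125 RPKM. The ysE libraries held next to none of these RNAs. Pdgfra, a receptor of mesoderm and primitive endoderm, differed little (9.66 and 10.5 RPKM in EBs, 4.28 and 4.86 RPKM in ysE), and its call was lost without either ysE sample.

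Of 17 tested genes of definitive endoderm and foregut, 10 were higher, 3 were lower and 4 were not called (median log2 fold change 4.77), and 6 had too few counts. Otx2, a factor of the anterior embryo and of early neural cells, was at 16 and 10.1 RPKM in EBs and 0 and 0.013 RPKM in ysE (log2 fold change 10.24 ± 0.64). Trh, a hormone precursor, was at 141 and 30.0 RPKM in EBs and 0.127 and 0.166 RPKM in ysE, and Shh, a signal of gut and midline cells, at 3.88 and 3.57 RPKM and 0.006 and 0.017 RPKM. Trh was lower at d15 than at d10, and both days were far above ysE. The gut peptide Pyy had 286 counts in EBs and 1 in ysE. The tight junction gene Cldn6 was 5.12-fold and the gut factor Pdx1 7.81-fold lower in EBs. Otx2 and Sox2 of this list are also on the neural list.

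Most basement membrane and parietal endoderm genes tested were higher. Of 17 tested, 11 were higher, 1 was lower and 5 were not called (median log2 fold change 0.88). The higher genes were 6 without ysE A and 5 with 11 libraries in the fit. Srgn, a proteoglycan core protein, was at 17.3 and 22.9 RPKM in EBs and 1.22 and 1.81 RPKM in ysE (log2 fold change 3.29 ± 0.30). Fst, an activin antagonist, was 6.63-fold, the plasminogen activator Plat 4.4-fold and nidogen Nid1 3.64-fold higher. Collagen Col4a1 was not called (133 and 213 RPKM in EBs, 116 and 129.9 RPKM in ysE). Sparc, a matrix protein of parietal endoderm, was at 152 and 276 RPKM in EBs and 70.5 and 86.1 RPKM in ysE, and its call was lost without ysE A. The parathyroid hormone receptor Pth1r was 2.02-fold lower.

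Neural genes were higher almost throughout. Of 31 tested, 30 were higher and 1 was not called, with a median log2 fold change of 4.45. Sox2, a factor of neural progenitors and of pluripotent cells, was at 43.5 and 31.8 RPKM in EBs and 0.123 and 0.173 RPKM in ysE (log2 fold change 7.56 ± 0.32, adjusted p = 5.71e-06). Stmn2, a tubulin-binding protein of neurons, was at 15.4 and 8.39 RPKM in EBs and 0.031 and 0.038 RPKM in ysE (log2 fold change 7.99 ± 0.49). The neurofilament gene Nefl was at 7.56 and 4.43 RPKM in EBs and had 2 counts in ysE. Both days of EBs were far above both ysE samples for these genes. Summed over the list, levels were 135 and 91.3 RPKM in EBs and 2.5 and 2.7 RPKM in ysE. The proneural genes Neurog1 and Neurog2, named because they were the members with too few counts, reached at most 0.124 RPKM in the 4 libraries.

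Neural crest and surface ectoderm had smaller medians than the neural list. Of 14 tested crest genes, 9 were higher and 5 were not called (median log2 fold change 1.55). The higher genes were 5 without ysE A, 5 without ysE B and 7 without d15, when 2 were lower. Twist1, a mesenchymal factor, was at 4.61 and 7.69 RPKM in EBs and 1.5 and 2.35 RPKM in ysE (log2 fold change 1.24 ± 0.34), and its call was lost without ysE A. The pigment cell factor Mitf and the endothelin receptor Ednrb were highest at d15. Ednrb was at 1 and 6.6 RPKM in EBs and 0.647 and 0.791 RPKM in ysE, and both calls were lost without d15 or either ysE sample. The receptor Erbb3, the most abundant of the list, was not called (log2 fold change -0.18 ± 0.20).

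Of 16 tested genes of surface ectoderm, 10 were higher, 2 were lower and 4 were not called (median log2 fold change 2.20). Sfn, the epithelial 14-3-3 protein, was at 7.45 and 5.21 RPKM in EBs and 0.068 and 0.111 RPKM in ysE (log2 fold change 5.71 ± 0.44). The epidermal factor Grhl3 was 6.59-fold and the junction gene Perp 3.22-fold higher, while the factor Ovol1 was 11.4-fold lower. The adhesion gene Cdh3 was not called, at 4.24 and 10.9 RPKM in EBs and 3.1 and 4.54 RPKM in ysE.

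Cardiac muscle genes were higher in EBs with few exceptions. Of 28 tested cardiac genes, 26 were higher, 1 was lower and 1 was not called (median log2 fold change 5.13). Without d15, 22 of 27 were higher with a median of 3.11, and with limma on log2(RPKM + 1), 13 were higher. Myl7, the atrial myosin light chain, was at 6.83 and 191 RPKM in EBs and 0 and 0.104 RPKM in ysE (log2 fold change 10.17 ± 1.76, adjusted p = 0.00164). Myl4, another light chain of the atrium, was at 8.34 and 75.3 RPKM in EBs and 0.161 and 0.139 RPKM in ysE. Myh7, a cardiac myosin heavy chain, was at 5.94 and 33 RPKM in EBs and 0.004 and 0.023 RPKM in ysE (log2 fold change 9.88 ± 1.01). For these genes d10 was already above ysE and d15 much above d10, and the SE of the change was large. Myl2, the ventricular light chain, was at 0.124 and 11.9 RPKM in EBs and had no count in ysE, at least 423-fold higher against a floor of 3 counts over the ysE group. It had 9 counts at d10 and 935 at d15, so that this bound rests on d15. Myh6 had 10282 counts in EBs and 3 in ysE. Gja5, a connexin of atria and arteries, was lower, at 0.112 and 0.153 RPKM in EBs and 0.585 and 0.432 RPKM in ysE. The VYS mesoderm held 30.3 and 23.1 RPKM of Gja5, of which the ysE mean was 1.9%.

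**Figure D3:**
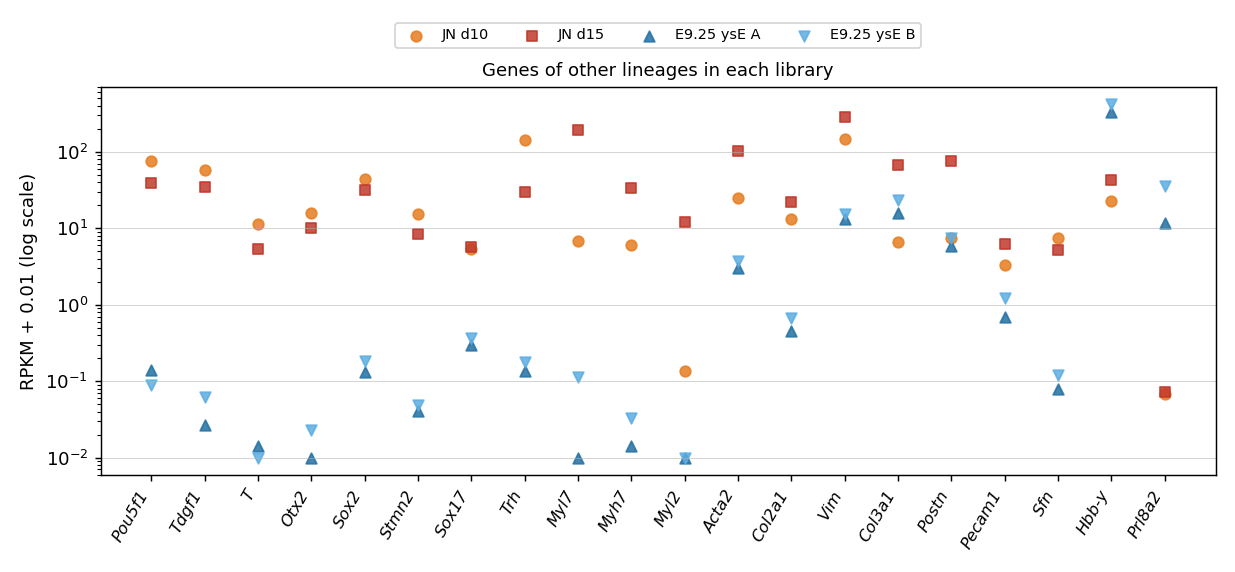
RPKM + 0.01 (log axis) of 20 genes of other lineages in JN d10 and d15 EBs and in ysE A and B, 1 point a library. On d10 and d15 Pou5f1 is at 76.8 and 39.1 RPKM and Myl7 at 6.83 and 191 RPKM. The haemoglobin gene Hbb-y is higher in ysE, at 333 and 419 RPKM.

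Skeletal and smooth muscle genes were higher or not called. Of 10 tested skeletal muscle genes, 5 were higher and 5 were not called (median log2 fold change 1.72, 0.98 without d10 and 3.23 with no filter on low counts), while 7 had too few counts, among them the myogenic factors Myod1, Myog, Myf5 and Myf6, each at most 0.029 RPKM in the 4 libraries. Acta1, skeletal actin, was at 5.9 and 4.32 RPKM in EBs and 0.234 and 0.237 RPKM in ysE, the light chain Mylpf was 10.5-fold, desmin (Des) 7-fold and the troponin Tnnt1 4.01-fold higher. Of 14 tested smooth muscle genes, 10 were higher and 4 were not called (median log2 fold change 2.83). Without d15, 9 were higher and 2 lower, with a median of 1.65. Acta2, smooth muscle actin, was at 24.7 and 102 RPKM in EBs and 2.97 and 3.7 RPKM in ysE (log2 fold change 3.80 ± 0.56), and Tagln at 29 and 43.2 RPKM and 1.86 and 2.09 RPKM. Cald1, a regulator of actin and myosin, was 19.2-fold and calponin (Cnn1) 23-fold higher. The VYS mesoderm held 133 and 109 RPKM of Acta2, so that d15 EBs were close to it and d10 EBs well below.

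Mesenchyme genes were higher or not called. Of 23 tested, 13 were higher and 10 were not called (median log2 fold change 1.81). These values changed with the day. Without d15, 12 were higher and 4 were lower with a median of 0.50, and without d10, 19 were higher and 1 was lower. Without ysE A, 9 were higher and the median was 1.14. Vimentin (Vim) was at 145 and 286 RPKM in EBs and 13.4 and 15.1 RPKM in ysE (log2 fold change 3.48 ± 0.31), and the matrix protease Mmp2 at 6.33 and 9.81 RPKM and 0.432 and 0.814 RPKM. The collagen Col6a1 was 8.38-fold and the fibrillin Fbn2 6.86-fold higher, while fibronectin (Fn1) was not called (48.2 and 46.4 RPKM in EBs, 38.3 and 54.1 RPKM in ysE). Summed over the list, levels were 251 and 604 RPKM in EBs, 103 and 152 RPKM in ysE and 2649.8 and 2280.2 RPKM in the VYS mesoderm. For Col3a1, Vim and Acta2, picked after their values were seen, the ysE means were 2.75%, 4.44% and 2.76% of the mesoderm means, and what part mesoderm RNA in the ysE samples has in the comparison was not tested. The same holds for the fibroblast feeders of the ES cells.

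Of 14 tested cartilage genes, 11 were higher and 3 were not called (median log2 fold change 2.95). The higher genes were 7 without ysE A, 7 without ysE B, and 7 without d15, when 2 were lower. Col2a1, the main collagen of cartilage, was at 13.1 and 22 RPKM in EBs and 0.447 and 0.668 RPKM in ysE (log2 fold change 4.54 ± 0.31). The collagens Col9a2 and Col9a3 were 15.2-fold and 14.3-fold higher, and the call of Col9a1 (0.559 and 2.79 RPKM in EBs, 0.338 and 0.37 RPKM in ysE) was lost without d15 or either ysE sample. Of 11 mesothelium genes, 3 were higher, 1 was lower and 7 were not called, where 30.9% of all genes were higher and 28.4% lower. Without d10, 7 were higher, and without d15, 2 were higher and 2 lower. Lrrn4 was 32.6-fold and Gpm6a 3.82-fold higher, and the higher call of Upk1b was lost without d15 or ysE A. Krt7, an epithelial keratin that ysE also used, was lower, at 10.4 and 14.3 RPKM in EBs and 75.4 and 86.3 RPKM in ysE. The defining mesothelial gene Msln reached at most 0.177 RPKM in the 4 libraries.

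Most endothelial genes were not called. Of 20 tested endothelial genes, 4 were higher and 16 were not called (median log2 fold change 0.41). Among all tested genes, 30.9% were higher and 28.4% lower, so the endothelial genes were not called more often than these. Both the count and the direction rested on single libraries. Without d15, 4 were higher and 6 were lower with a median of -0.30, and without d10, 10 were higher with a median of 0.84. Without ysE A and without ysE B the medians were 0.15 and 0.69. With A9 in place of JN, 10 were higher (median 1.46). Flt1, a VEGF receptor that trophoblast giant cells also make, was at 6.51 and 6.82 RPKM in EBs and 0.432 and 0.653 RPKM in ysE (log2 fold change 3.20 ± 0.25). The adhesion gene Pecam1, which ES cells share, was at 3.27 and 6.28 RPKM in EBs and 0.684 and 1.2 RPKM in ysE, and Mmrn2 was 3.48-fold higher. The call of Egfl7, the most abundant of the list, was lost without either ysE sample. The ysE mean of Pecam1 was 3.46% of that of the VYS mesoderm. Summed levels were 37.9 and 75.6 RPKM in EBs, 21.6 and 28 RPKM in ysE and 537 and 448 RPKM in the VYS mesoderm, which holds the vessels.

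Erythroid genes were lower in EBs. Of 23 tested, 17 were lower and 6 were not called (median log2 fold change -2.77). The embryonic globin Hbb-bh1 was at 32.6 and 71 RPKM in EBs and 444 and 516 RPKM in ysE (log2 fold change -3.65 ± 0.34), and Hbb-y at 22.9 and 42.4 RPKM and 333 and 419 RPKM. Slc4a1, the anion exchanger of red cells, was 16.9-fold lower. Hba-a1 had the same fold change as its near-identical copy Hba-a2, and their reads cannot be told apart. Blood cells form in the mesoderm of the yolk sac, and there the list summed to 48076 and 38317 RPKM, against 953 and 1134 RPKM in ysE and 81.7 and 154 RPKM in EBs. The ysE means of Hbb-y, Hbb-bh1, Hba-a1 and Slc4a1 were 2.3%, 2.55%, 2.22% and 3.92% of the mesoderm means. What part blood RNA in the ysE samples has in the lower calls was not tested.

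Of 19 tested leukocyte genes, 5 were lower, 3 were higher and 11 were not called (median log2 fold change -0.26, 0.08 with upper quartile scaling). Neither count was above the share of all tested genes (28.4% lower, 30.9% higher). Without d15, 11 of 20 were lower with a median of -2.17, and without ysE A, 3 were lower and 1 was higher. The median was -0.16 without d10 and -0.58 without ysE B. Fcgr3, an IgG receptor, was at 0.623 and 1.77 RPKM in EBs and 20.2 and 21.8 RPKM in ysE, more than in the VYS mesoderm (3.81 and 5.69 RPKM). The macrophage receptor Mrc1 was at 0.356 and 1.69 RPKM in EBs and 2.18 and 2.49 RPKM in ysE, 4.14% of the mesoderm mean, and its call and that of the higher Cd68, a lysosomal protein of macrophages, were lost without either ysE sample. The leukocyte antigen Ptprc reached at most 0.145 RPKM in the 4 libraries.

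Trophoblast genes split. Of 12 tested, 6 were lower, 3 were higher and 3 were not called, where 30.9% of all genes were higher and 28.4% lower. Another 7 had too few counts. The median log2 fold change was -0.85, and 3.18 with clone A9 in place of JN. Without ysE B, 5 of 13 were lower and 3 higher, and the median was 0.42. It was -0.49 without d10, -2.90 without d15 and -0.40 without ysE A. The placental hormone genes Prl3d1 and Prl2c2 were at 4.35 and 5.2 RPKM and 2.15 and 2.78 RPKM in ysE and at 0 and 0.092 RPKM and 0.198 and 0.122 RPKM in EBs. The VYS mesoderm samples were unlike each other for both, with 58.5 and 0.544 RPKM of Prl3d1 and 44.4 and 0.643 RPKM of Prl2c2. With clone A9 the log2 fold change of Prl3d1 was 0.08 in place of -7.07. Whether trophoblast RNA in the dissected samples has a part in these calls was not tested. Sct, which encodes secretin, was 9.05-fold lower. The growth factor Pgf was higher, at 3.43 and 5.89 RPKM in EBs against 0.155 and 0.231 RPKM in ysE. The higher Eomes and the lower Krt7 of this list are also on the primitive streak and mesothelium lists.

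Of 18 tested genes of motile cilia, 14 were higher, 2 were lower and 2 were not called (median log2 fold change 3.68, 3.67 with genes absent from ysE at their bound). Most were at low levels, and with limma on log2(RPKM + 1) the median was 0.19. Rfx3, a factor of ciliated cells, was at 3.01 and 2.43 RPKM in EBs and 0.172 and 0.19 RPKM in ysE (log2 fold change 3.49 ± 0.27). The tubulin Tuba1a, which neurons also use and which has near-identical copies, was 14.5-fold higher, and Ccdc39, an axoneme gene, 2.57-fold, a call lost without ysE B. The dynein chain Dnaic1 was lower (0.432 and 0.233 RPKM against 0.79 and 0.806 RPKM), a call lost without either ysE sample. Foxj1, the defining factor of motile cilia, singled out after its values were seen, was not called (1.73 and 0.913 RPKM in EBs, 1.47 and 1.55 RPKM in ysE).

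The 12 largest changes in each direction among called protein-coding genes whose groups did not overlap, with at least 5 RPKM in the higher group, included Myl2, T, Myh6, Nefl, Otx2, Myl7, Dnmt3l, Myh7 and Slc22a2, described above. The others were on no list. On the higher side, Glt1d1, a glycosyltransferase-like gene, was at 10.2 and 6.22 RPKM in EBs and had no count in ysE, at least 1360-fold higher against the floor of 3 counts over the group. The neuropeptide gene Calca was at 7.78 and 3.64 RPKM in EBs with no count in ysE, at least 600-fold higher. Mup6, of a family of near-identical urinary protein genes, and the gene 2410141K09Rik also had no count in ysE and were at least 371-fold and 373-fold higher. On the lower side, Clec2h, a lectin, was at 9.86 and 7.47 RPKM in ysE and 0 and 0.015 RPKM in EBs (log2 fold change -10.48 ± 0.60). The organic anion transporter Slco1a6 was at 9.63 and 7.01 RPKM in ysE and 0.006 and 0.011 RPKM in EBs, and BC021785 was 984-fold lower. The amino acid enzymes Prodh2 and Haao and the sodium pump regulator Fxyd2 fell 438-fold, 336-fold and 387-fold. Fxyd2 was the most abundant of them, at 162 and 182 RPKM in ysE and 0.342 and 0.851 RPKM in EBs. Gm10639 and the lectin Mbl1 had 2 and 2 counts in EBs and 1932 and 1546 in ysE. Chst13, a sulphotransferase, and Gm7092 were 511-fold and 379-fold lower, and Prl8a2, a placental prolactin gene, fell from 11.6 and 35.3 RPKM in ysE to 0.057 and 0.062 RPKM in EBs. The ysE samples differed from each other in Prl8a2, and so did the VYS mesoderm samples (194 and 13 RPKM), with ysE B above mesoderm B.

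In JN EBs the RNA levels of several lists differed between the days, which are 1 library each, so that the values below carry no test. Of 28 cardiac genes, 24 were at least 2-fold higher in CPM at d15 than at d10 and 0 at least 2-fold lower, with a median log2 difference of 2.13. The same counts were 14 and 1 of 22 plasma proteins (median 1.63), 10 and 0 of 16 leukocyte genes (median 1.32) and 10 and 0 of 20 endothelial genes (median 1.02). Pluripotency genes leaned lower at d15, with 0 higher and 8 lower of 24 (median -0.74), and neural genes leaned the same way, with 4 higher and 7 lower of 31 (median -0.48). Over all 15980 genes with more than 3 counts on both days, 1120 were at least 2-fold higher and 765 at least 2-fold lower at d15 (median -0.01). The plasma proteins were thus nearer to ysE at d15, Afp at 35.1 and 212 RPKM being still far under the 6071 and 6628 RPKM of ysE. The lipoprotein list gained less, with 6 of 18 genes at least 2-fold higher and a median of 0.68, and the receptor list had 3 of 12.

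Some of these differences between days ran the other way in EBs of clone A9. On the RPKM scale, over the members above 0 RPKM in all EB libraries, 25 of 28 cardiac genes were at least 2-fold higher at d15 in JN (median log2 ratio 2.25), while in A9 20 were at least 2-fold lower and 3 at least 2-fold higher (median -1.63). Myl7, at 6.83 and 191 RPKM on d10 and d15 of JN, was at 30.1 and 4.03 RPKM in A9. The endothelial medians were 1.13 in JN and -1.87 in A9, the pluripotency medians -0.63 and 0.28, and the neural medians -0.36 and 0.27. Pou5f1 was at 53.4 and 64.6 RPKM in A9. Plasma proteins went the same way in both clones, with medians of 1.78 and 1.73 over 23 genes, as did leukocyte genes, with 1.51 and 1.38 over 17 genes. Each clone has 1 library a day, and this comparison was added after seeing the data.

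**Figure D4:**
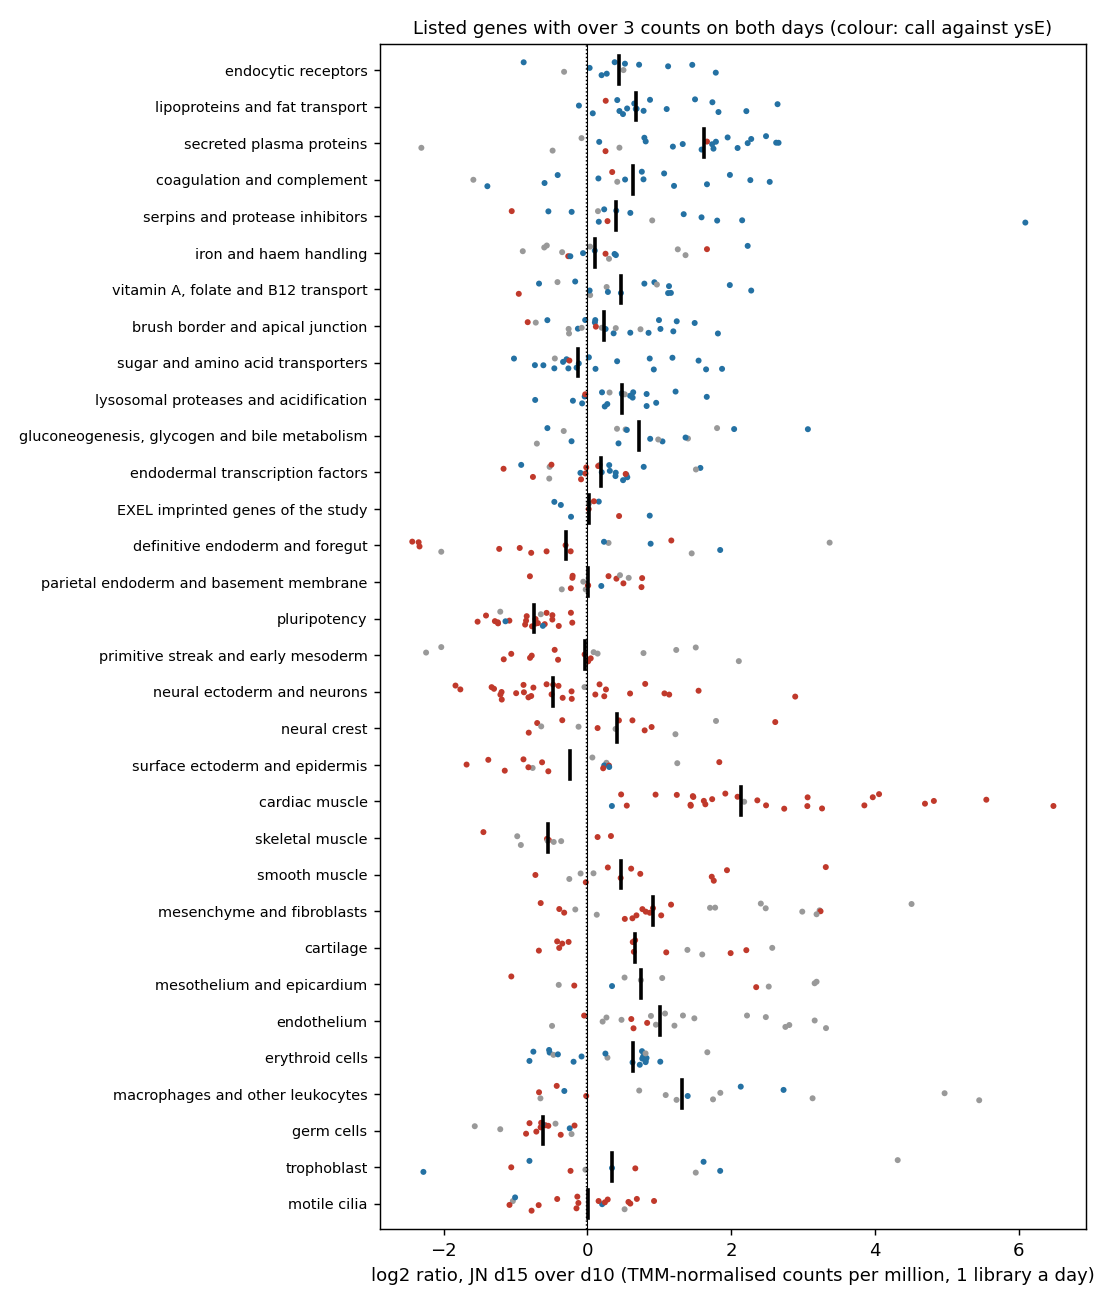
Log2 ratio of CPM at d15 over d10 of JN EBs (x axis) for the genes of each list, 1 point a gene, with the median of a list as a bar. Cardiac genes sit to the right (median 2.13) and pluripotency genes to the left (median -0.74), with all tested genes at -0.01.

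Peaks of H3K4me3, a histone mark of active and poised promoters, were deposited for whole VYS at E12.5, pooled from FVB/N litters as 1 library without replicates. The VYS holds the mesoderm as well, and its stage is later than that of the RNA. A peak over the gene or within 500 bases of it was found for 13577 of 16226 tested genes (83.7%), for 4188 of 4601 genes lower in EBs (91%) and for 3761 of 5008 genes higher in EBs (75.1%). Among genes that differed by at least 8-fold, the shares were 70.5% of lower and 56.9% of higher genes. Counting only peaks with a MACS score at or above the median of all peaks, they were 81.1% of lower and 48% of higher genes, and 43.2% and 21.6% of those past 8-fold. Genes share 1 peak library, so that these shares are a description. A peak anywhere within a gene counted, also away from its start, and gene length was not taken into account. Among the lists of ysE functions, the share ran from 11 of 16 serpins and 13 of 18 genes of gluconeogenesis, glycogen and bile metabolism to all 24 endodermal transcription factors and all 12 receptor genes, with 16 of 20 for the lipoprotein list. The lists of other cell types ran wider. A peak was found for 3 of 10 skeletal muscle, 9 of 28 cardiac, 13 of 31 neural and 13 of 24 pluripotency genes. It was found for 12 of 14 smooth muscle, 20 of 23 mesenchyme, 16 of 17 basement membrane, 17 of 18 cilia and 20 of 20 endothelial genes. At or above the median score, there were 1 skeletal muscle, 6 cardiac, 2 neural and 4 pluripotency genes. By that count there were 5 smooth muscle, 19 mesenchyme, 12 basement membrane, 6 cilia and 13 endothelial genes.

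**Figure D5:**
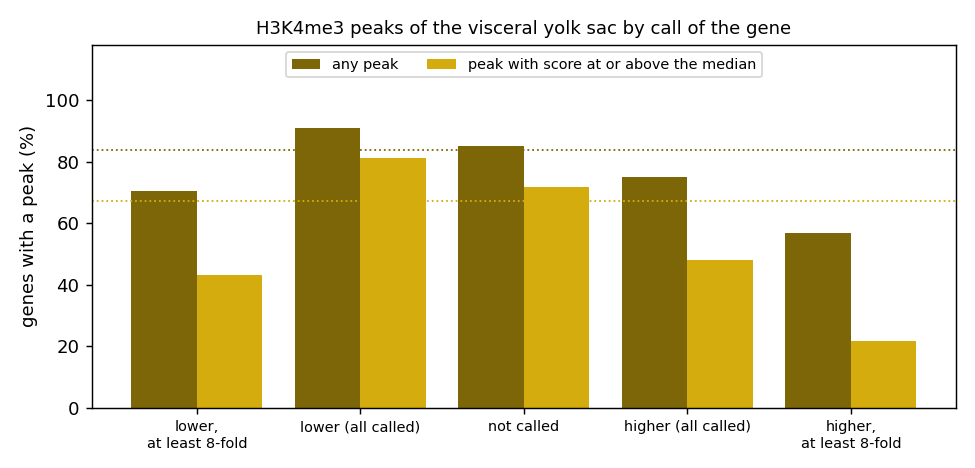
Percent of genes (y axis) with a VYS H3K4me3 peak over or near the gene, for genes lower, not called and higher in JN cystic EBs, with any peak and with a peak scored at or above the median. Dotted lines give all tested genes (83.7% and 67.1%). The bar of the higher genes is under that of the lower genes by both counts, 75.1% against 91% for any peak.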

How the data were processed

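RNA-seq libraries were made from RNA depleted of ribosomal RNA. Alignment was done with GSNAP. For each RefSeq transcript the authors deposited raw counts and RPKM, both from RSeQC and custom scripts. Whether the counting used strand is not given in the sources used here, so overlapping and antisense genes are uncertain. The ChIP-seq peaks were deposited with the MACS (1.4.2) score on mm10.

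Transcripts were filtered with filterByExpr, scaled by TMM and tested with edgeR 4.0.16 (quasi-likelihood) in R 4.3.3, JN EBs against E9.25 ysE, with days as replicates as in the study and no covariate. Benjamini-Hochberg adjustment ran over all 22291 transcripts tested. A gene is its transcript with the highest mean count, on autosomes 1 to 19 of GRCm38.p6. The common biological coefficient of variation was 0.2435. Depths are given in the report. In simulated counts of this comparison over 22291 transcripts, 38% of 2-fold, 88% of 4-fold, 90% of 8-fold and 96% of 16-fold changes were recovered. Each fold was given to 50 transcripts, a far smaller share than was called in the data. Recovery in the data may therefore differ from these values. DESeq2 1.42.0 and limma 3.58.1 were alternatives, and Python 3.11.15 with pandas 2.3.3 and matplotlib 3.10.9 made the tables and plots. Where a group had no count, its level was set to a floor of 3 counts for the whole group, which makes the fold a lower bound, and no fold is given where a group had 1 to 3 counts. These bounds cover counting error only.

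The comparison, its members and the gene lists were chosen with earlier results of these data known. In each list the text names up to 4 called members with the largest change among those with at least 1 RPKM in the higher group, the 2 with the highest RPKM, and the largest change against the side of the list. Beyond the lists it names the 12 largest changes in each direction among protein-coding genes of at least 5 RPKM whose groups do not overlap. Genes outside this rule were named after their values were seen, and a few genes that it names are not reported here. Left out of the lists were C5, Ahsp and Eraf, among those not found, and Gpc3, Cldn2, Lamp2, Cited1, Smpx, Esx1 and Rhox6, on sex chromosomes. Promoters and their sequences are from RefSeq, and promoters matched too few tested genes (77.1%) for shares to be compared between classes. Bisulfite, exon and repeat files were not used here.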

Additional observations from a re-analysis of the deposited data

Results flagged for a closer look

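In 7 listed genes the days of JN EBs lay on opposite sides of both ysE samples in TMM-scaled CPM, with d15 above and d10 below, and differed by at least 8-fold. The difference between days was not tested, since each day is 1 library. The ratio of d15 over d10 was 43.6 for the platelet chemokine Pf4, 22.7 for the matrix proteoglycan Lum, 10.3 for the gut peptide Tff3 and 9.96 for the endothelial adhesion gene Icam2. It was 9.45 for the matrix gene Postn, 9.37 for the collagen Col3a1 and 8.93 for the endothelial sialomucin Emcn. Pf4 was at 0.074 RPKM on d10 and 3.48 RPKM on d15, so that its ratio rests on a very low d10 level. Emcn and Icam2 were also low on d10, at 0.19 and 0.213 RPKM. Over both days Postn was called higher by edgeR's quasi-likelihood test (log2 fold change 2.18 ± 0.80, Benjamini-Hochberg adjusted p = 0.0444), and the other 6 were not called. In EBs of clone A9 d15 was also above d10 for 5 of these 7 genes, but not for Icam2 (2.81 and 0.597 RPKM on d10 and d15) or Emcn (2.29 and 0.514 RPKM). Of 557 listed genes tested, 27 were split between the days in this way by at least 2-fold. For these genes, EB levels differed more between the days than the fitted change from ysE shows.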

How the results depend on the processing

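Both counts of called genes stayed within 1.5 times of 5008 and 4601 under DESeq2 size factors, upper quartile scaling (6419 higher, 3227 lower), no filter on low counts, 6 or 11 libraries in the fit, clone A9 in place of JN, 1 transcript per gene, DESeq2 and an FDR of 1%. A test for changes beyond 2-fold called 3159 higher and 2035 lower genes, as a stricter question. With limma on log2(RPKM + 1) 2840 genes were lower, and the cause was not tested. Leaving out each library gave 3546 to 5320 higher and 3077 to 5450 lower genes. Where a group then has 1 library, it is assumed to vary like the other group. With A9 in place of JN, which changes the clone and the library protocol (ScriptSeq in place of dUTP) together, 78.4% of the calls were kept and 137 genes were called in the opposite direction. There the change of Ctsl was 0.41 and that of Prl3d1 0.08, against falls in JN, and calls were lost for Apoe, Cd68, Gja5, Krt18, Krt7, Mitf, Mpo, Osbpl5, Prl2c2, Pth1r, Sct, Tdrd1 and Tuba1a. Upper quartile scaling ended the calls of Ftl1, Krt8, Krt18, Mrc1, Spink3 and Tdrd1. Without d10, the uncalled Gyg had a change of 0.58 in place of -0.03, and without d15 one of -1.24 that was called. The causes were not tested. List medians changed sign for endodermal transcription factors (0.07 with A9), leukocytes (0.08 with upper quartile scaling), trophoblast (3.18 with A9, 0.42 without ysE B) and endothelium (-0.30 without d15). With A9 the medians of other lists also moved by over 1.5 times, to -1.79 for endocytic receptors, -2.71 for coagulation and complement, -0.89 for iron, -0.91 for imprinted genes, 2.09 for basement membrane, 2.40 for neural crest, 2.77 for mesenchyme, 2.82 for mesothelium, 1.46 for endothelium, -0.17 for leukocytes and 0.35 for germ cells. On the log2(RPKM + 1) scale of limma, which understates changes of low genes, list medians were nearer to 0 except for basement membrane (1.17 against 0.88). Those nearer to 0 were, for example, 0.19 for motile cilia, 0.28 for skeletal muscle, 0.81 for definitive endoderm and 0.89 for neural genes. Iron was at -0.03, gluconeogenesis at -0.49 and erythroid genes at -0.63. Among lower, uncalled and higher genes, the shares with an H3K4me3 peak kept their order under both alternatives. These were a peak over the gene only and a score at or above the median, chosen after seeing the data. The order of the lists changed with the score cut, where motile cilia went from 94.4% to 33.3% and mesenchyme from 87% to 82.6%. No paired analysis was possible because the EBs were cultured from an ES clone and the ysE was dissected from litters, so no JN library has a ysE partner. With 2 libraries a group, changes near 2-fold can be missed, and genes under the count filter were not tested.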
